A study of Danio rerio with 12 samples.

Results

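The 100 features described here are the genes whose counts set the LWS2 libraries furthest apart from all other libraries of a bulk RNA-Seq study of adult zebrafish retina. They were chosen by their measured values: among 9902 features with at least 5 counts in each LWS2 library, out of 30258 in the table, the 100 with the highest score were taken. The score is log2((lowest LWS2 CPM + 5) / (highest CPM of the other 9 libraries + 5)), and CPM is the count of a feature scaled to 1000000 counts of its library. The 13 mitochondrial genes, 39 features with a proteasome symbol beginning psm and 15 features of 13 other named genes, the opsin gene opn1lw2 and syt4 among them, were removed before the ranking. The levels that follow in the LWS2 libraries against the others are therefore descriptions of the choice, with no test.

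Cells were collected by fluorescence-activated sorting, with 3 libraries in each of 4 groups. LWS1 (GFP+) and LWS2 (RFP+) cones came from the lws:PAC(H) line, which carries a PAC clone of the lws locus with GFP placed behind the lws1 promoter and dsRedExpress (RFP) behind the lws2 promoter, so the reporters mark promoter activity of a transgene. The tdTomato+ cones and the tdTomato- retinal cells came from the thrb2:tdTomato line, whose reporter is driven by the thyroid hormone receptor beta 2 promoter and labels LWS cones of both kinds. All fish were adults of 0.5 to 1.5 years and of both sexes with a genotype given as WT beside the reporter, kept in the dark until collection near light onset, and retinas without pigment epithelium were dissociated with proteases. Between an lws:PAC(H) group and a tdTomato group, the transgenic line, the fluorophore, the sort gate and the cells cannot be told apart. LWS2 and LWS1 share the line but differ in fluorophore and sort gate as well as cone type, which cannot be told apart either. The authors write that dsRedExpress is known to misfold or aggregate and to engage stress pathways of the cell. They propose this as a potential explanation for the proteasome transcripts in LWS2, and its part in the members was not tested here. The sources do not say which libraries share fish, so p-values measure only the spread between these libraries.

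Zebrafish have a pair of tandemly duplicated long-wavelength opsin genes, lws1 and lws2, and most LWS cones express one of them in a region-dependent way. Photoreceptors turn over large amounts of membrane and protein and run a high oxidative metabolism. Ubiquitin ligases mark proteins, the p97 ATPase (VCP) and its cofactors unfold and extract them, and the proteasome degrades them. The thioredoxin system keeps protein thiols reduced at the expense of NADPH, and NF-kB is a family of transcription factors that respond to inflammatory signals.

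After the rule's removals, the libraries held 210866 to 2596011 counts, and the LWS2 libraries with 1760677 to 2596011 were among the deepest. Mitochondrial genes took 12.9% to 13.8% of all counts in LWS2, 18.9% to 29.7% in LWS1, 21.98% to 71.7% in tdTomato+ and 53.4% to 54.3% in tdTomato- libraries. The proteasome features removed by the rule summed to 7821 to 8681 CPM in LWS2 and 1775 to 3130 in the other 9 libraries. With the mitochondrial genes kept in the ranking, 75 of the 100 members were chosen again, and 81 were chosen again without LWS1 replicate 3 and tdTomato- replicate 1, the shallowest libraries. The part of the proteasome genes in the results was not tested. LWS cone markers (5 features of opn1lw1, opn1lw2 and thrb) summed to 24823 to 44999 CPM in the 9 sorted cone libraries and to 512 to 8045 CPM in tdTomato-. The opn1lw2 feature ENSDARG00000044861 had 14677 to 16535 CPM in LWS2 and 1409 to 9511 CPM in LWS1, so the LWS1 libraries also held lws2 transcript. It had 11724 to 16118 CPM in tdTomato+, a range that overlapped that of LWS2. The opn1lw1 feature ENSDARG00000044862 had 4440 to 8455 CPM in LWS2 and 20207 to 24833 CPM in LWS1, so the LWS2 libraries also held lws1 transcript. Sums of microglia markers (6 of 7 found) lay within the range of the other libraries, at 52.8 to 183 CPM in LWS2 and 15.0 to 375 CPM elsewhere, as did Müller glia markers (7 of 7), at 658 to 2032 against 243 to 20410 CPM. The other cone opsins (6 of 6) summed to 8192 to 8762 CPM in LWS2, above the 4211 to 6949 CPM of LWS1 and below the 10069 to 52227 CPM of the tdTomato groups, and their part in the results was not tested. In bulk samples, fewer cells of a type and less RNA per cell cannot be told apart.

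Scores of the 100 features ran from 0.42 to 2.23, with a median of 0.67. Of all ranked features, 411 (4.15%) had a score above 0, that is, no overlap between LWS2 and the other libraries. Around the limit, eif5a2 at rank 99 had at least 258 CPM in LWS2 against at most 191 CPM elsewhere, and zgc:174906 at rank 100 had 4.37 against 2.01 CPM. Just outside stood MRPL35, with 98.8 against 73.0 CPM, and POMP, a proteasome assembly factor, with 190.3 against 142 CPM. The members covered low and high levels: mean LWS2 CPM ran from 3.197 to 1469, with a median of 51.1 (20.9 over the ranked features), and 22 members lay under 20 CPM, 50 between 20 and 100 CPM and 28 at 100 CPM or more. Mean LWS2 CPM over the group mean had a median of 4.85-fold against LWS1, 5.18-fold against tdTomato+ and 5.82-fold against tdTomato-. In these medians, groups with 0 counts in all 3 libraries were set to a floor of 3 counts over the pooled total of the group. That applied to 12 members in LWS1, 10 in tdTomato+ and 10 in tdTomato-.

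**Figure D1:**
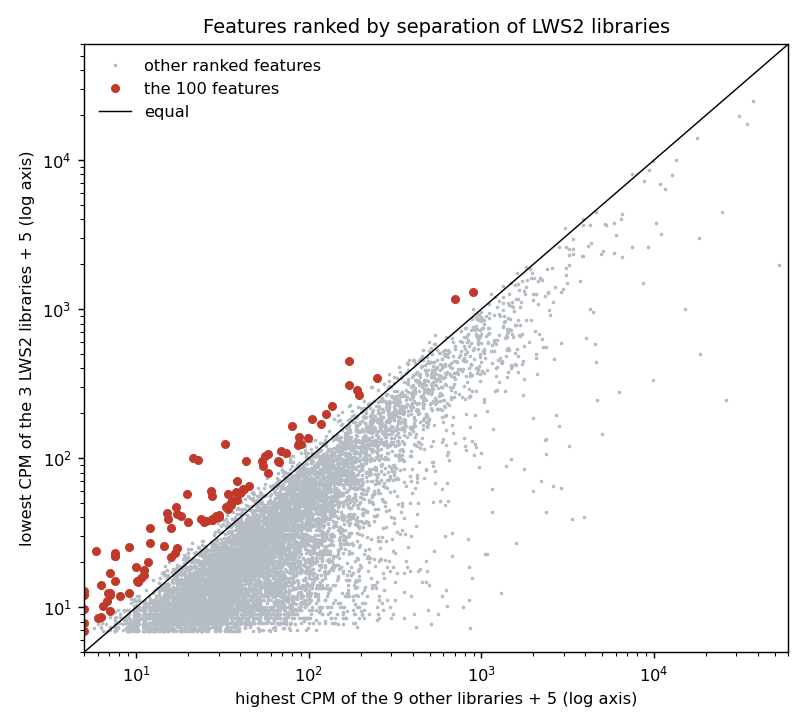
Lowest CPM of the 3 LWS2 libraries against the highest CPM of the other 9 libraries, each with 5 added, on log axes, 1 point for each of the 9902 ranked features; the line marks equal values. The 100 members (red) lie furthest above the line at low and high levels alike, while 4.15% of all ranked features lie above it.

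The feature with the highest score was ckba (ENSDARG00000069752), which encodes a brain-type creatine kinase, the enzyme that buffers ATP through phosphocreatine. It had 142, 95.0 and 162 CPM in LWS2, 14.0, 10.2 and 10.2 in LWS1, 1.41, 16.4 and 3.44 in tdTomato+ and 0, 2.70 and 3.02 in tdTomato- libraries. The LWS2 libraries lay above all others, as the rule requires, while the ranges of the other groups overlapped in part. The mean LWS2 level was 11.6-fold that of LWS1. A second feature with the reference name CKB was far more abundant, with a mean of 27067 CPM in LWS2 and 32649 CPM in LWS1, and reads of closely related copies may have been split between the features. The value of ckba is uncertain for that reason. In all, 22 of the 100 members share a name with another feature of the table, and the values of that other feature are given below for some of them only.

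Genes of the thioredoxin system and an NADPH-producing enzyme stood among the first members, and 4 of the 39 features on the antioxidant list were members (txn, nfe2l1b, txnrd3 and prdx1). Over the whole ranking, 100 of 9902 features were members, but the 39 list features were counted over the whole table, ranked or not. The gene lists were drawn up with earlier results of these data known, so their counts of members are descriptions. The feature with the deposited symbol txn (ENSDARG00000044125), named txnb in the reference list, had 156, 119.6 and 162 CPM in LWS2, 9.65, 0 and 0 in LWS1, 7.98, 27.7 and 18.04 in tdTomato+ and 0, 10.1 and 9.05 in tdTomato- libraries. Thioredoxin reduces disulfides in proteins, and LWS1 replicates 2 and 3 held no count of this gene. The abundant thioredoxin zgc:56493 (TXN in the reference list) had 442, 507 and 502 CPM in LWS2, 165, 102.3 and 150.4 in LWS1, 145, 152 and 79.0 in tdTomato+ and 114, 116 and 155 in tdTomato- libraries. This feature was among the highest of the 100 in level, and LWS2 lay 3.48-fold above LWS1, 3.86-fold above tdTomato+ and 3.78-fold above tdTomato-. Cytosolic malic enzyme me1, which makes NADPH, had 43.7, 18.3 and 27.3 CPM in LWS2, 0.877, 2.56 and 0 in LWS1, 0.469, 0 and 0 in tdTomato+ and 0, 0 and 1.01 in tdTomato- libraries. Its 9 other libraries held 5 counts in all. The reductase txnrd3, which recharges thioredoxin, had 118 to 144 CPM in LWS2 and at most 81.8 CPM elsewhere. The thiol peroxidase prdx1 (ENSDARG00000058734) had 16.6 to 23.0 CPM in LWS2 and at most 10.8 CPM elsewhere, but a second feature named PRDX1 had means of 289 CPM in LWS2 and 279 CPM in LWS1, so only the rarer copy set LWS2 apart by the rule. The thioredoxin-binding arrestin txnipa had 122.7, 47.7 and 64.7 CPM in LWS2, 26.3, 11.5 and 6.10 in LWS1, 4.70, 22.7 and 7.73 in tdTomato+ and 33.2, 29.7 and 13.1 in tdTomato- libraries, with LWS2 replicate 1 well above the other LWS2 libraries.

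Near this group stood nfe2l1b, a zebrafish form of NRF1, the transcription factor that in mammals raises proteasome genes when proteasome activity is short. It had 152, 134 and 160.2 CPM in LWS2, 82.5, 72.9 and 22.4 in LWS1, 59.6, 54.1 and 67.9 in tdTomato+ and 19.0, 28.4 and 48.3 in tdTomato- libraries. The LWS2 values lay within a narrow range, and the highest other value was in LWS1. Iron and redox genes outside the list were chosen here after their values had been seen. LOC100006428, annotated in the files as a ferritin middle subunit-like gene, had 42.0, 34.2 and 50.5 CPM in LWS2, 0.877, 0 and 0 in LWS1, 9.86, 18.9 and 6.01 in tdTomato+ and 0, 12.2 and 14.1 in tdTomato- libraries. LWS1 held 1 count of this iron-storage gene over its 3 libraries, while tdTomato+ libraries held 6.01 to 18.9 CPM. The iron-sulfur protein assembly gene ciapin1 had 91.3 to 101.7 CPM in LWS2 and at most 38.4 CPM elsewhere. Si:dkey-34l15.1 (TSTD1, a sulfurtransferase of the rhodanese family, in the reference list) had 29.0, 18.7 and 24.7 CPM in LWS2 and 1 count in the 9 other libraries together. The dihydropteridine reductase qdpra, which regenerates the cofactor tetrahydrobiopterin, had 42.0 to 67.8 CPM in LWS2 and at most 12.02 CPM elsewhere.

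Several members act in ubiquitin-dependent degradation. The list of ubiquitin, ER-associated degradation and p97 genes held 48 features, of which 6 were members, beside 100 of the 9902 ranked features. The 48 were counted over the whole table, ranked or not, so the bases differ. The p97 cofactor nsfl1c (p47) had 189, 161 and 180.3 CPM in LWS2, 57.03, 48.6 and 38.6 in LWS1, 48.4, 73.0 and 51.5 in tdTomato+ and 66.4, 74.4 and 74.4 in tdTomato- libraries. The highest other value, 74.4 CPM, was in tdTomato-, and LWS2 was 3.67-fold above LWS1. The deubiquitinase usp14, which works on the proteasome, had 64.8 to 74.4 CPM in LWS2 and at most 33.2 CPM elsewhere. The cofactor ufd1l, which binds ubiquitin chains for p97, had 306, 313 and 385 CPM in LWS2, 78.1, 95.9 and 97.5 in LWS1, 166, 50.4 and 46.4 in tdTomato+ and 61.7, 107 and 90.5 in tdTomato- libraries. It was the most abundant of the 6, and tdTomato+ replicate 1 lay well above the other libraries outside LWS2. The p97 ATPase gene itself was counted on 2 features. The member vcp (ENSDARG00000116074) had 164 to 213 CPM in LWS2 and at most 113 CPM elsewhere, and the other (ENSDARG00000020008) had means of 372 CPM in LWS2 and 239 CPM in LWS1, with a highest value of 317 CPM outside LWS2 below its lowest LWS2 value of 340.1 CPM. Both features thus lay highest in LWS2. The shuttle receptor RAD23B had 121 to 141 CPM in LWS2 and at most 83.1 CPM elsewhere, and the ER-membrane adaptor ubxn4 had 35.4 to 40.3 CPM in LWS2 and at most 25.0 CPM elsewhere.

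Other ubiquitin genes among the members, grouped after their values had been seen, were the deubiquitinase USP5 with 103.7 to 120.4 CPM in LWS2 and at most 69.1 CPM elsewhere, the conjugating enzyme variant ube2v1 with 220.5 to 285 CPM in LWS2 and at most 130.5 CPM elsewhere and the ligase ube3a with 42.1 to 54.7 CPM in LWS2 and at most 28.1 CPM elsewhere. The ligase HECTD2 had 0 counts in the 9 other libraries but only 2.84 to 5.16 CPM in LWS2. COPS3, a subunit of the COP9 signalosome, which removes NEDD8 from cullin ligases, had 53.2 to 62.4 CPM in LWS2 and at most 35.2 CPM elsewhere. The oligopeptidase THOP1, which cleaves peptides released by the proteasome, had 341, 396 and 349 CPM in LWS2, 100.03, 243 and 97.5 in LWS1, 118.8, 60.4 and 170.1 in tdTomato+ and 56.9, 46.0 and 84.5 in tdTomato- libraries. It was the fourth most abundant member, and LWS1 replicate 2 stood out above the other libraries outside LWS2. PSMA2, a proteasome alpha subunit, remained in the ranking because this feature carries no deposited symbol, and it had 132 to 139 CPM in LWS2 and at most 93.5 CPM elsewhere.

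**Figure D2:**
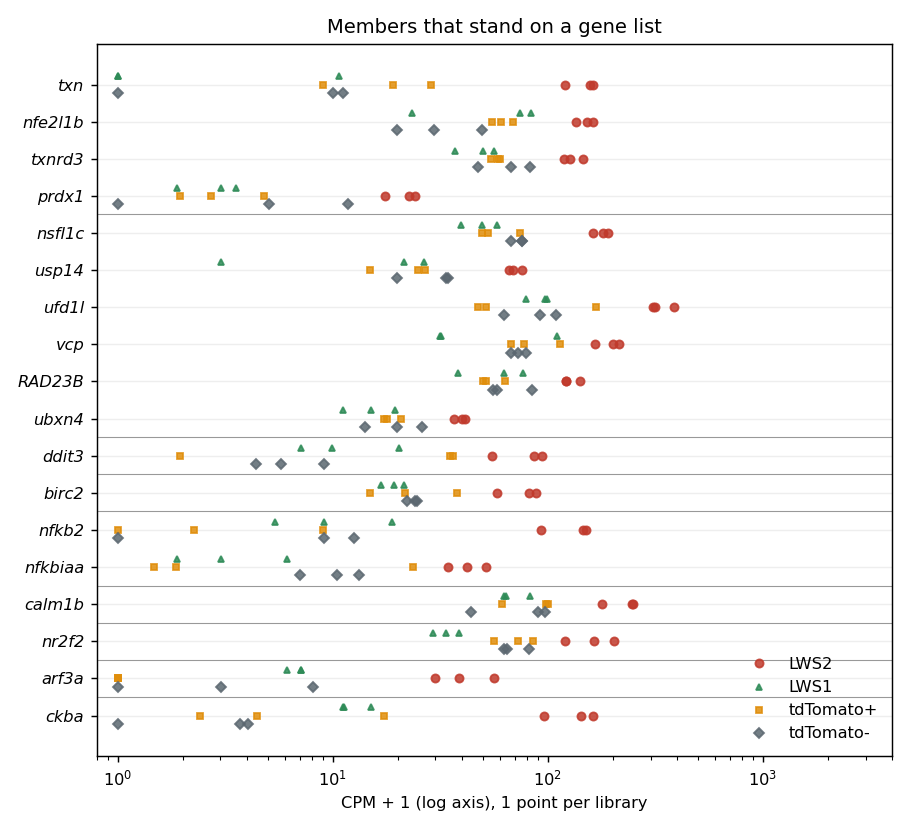
CPM + 1 on a log axis for 18 members that stand on a gene list, 1 point per library; horizontal lines separate, from the top, antioxidant, ubiquitin and p97, stress response, apoptosis, immediate early and NF-kB, phototransduction, nuclear receptor, vesicle and energy lists. In each row the 3 LWS2 points lie to the right of all others, as the rule requires, and the gap runs from narrow (ubxn4, RAD23B) to wide (txn, ckba).

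Signalling and stress genes formed a further set. The NF-kB subunit gene nfkb2, which encodes the precursor of p52, ranked second with 149, 92.2 and 145 CPM in LWS2, 4.39, 17.9 and 8.13 in LWS1, 7.98, 1.26 and 0 in tdTomato+ and 0, 11.5 and 8.05 in tdTomato- libraries. The NF-kB inhibitor nfkbiaa (IkB alpha) had 50.5, 33.4 and 40.8 CPM in LWS2, 0.877, 5.11 and 2.03 in LWS1, 0.469, 22.7 and 0.859 in tdTomato+ and 9.48, 12.2 and 6.03 in tdTomato- libraries. Outside LWS2, tdTomato+ replicate 2 alone exceeded 20 CPM for nfkbiaa. The neutrophil-attracting chemokine cxcl8a had 76.7, 20.3 and 81.3 CPM in LWS2, 1.75, 0 and 0 in LWS1, 0, 0 and 1.72 in tdTomato+ and 0, 4.06 and 0 in tdTomato- libraries. LWS2 replicate 2 was much lower than replicates 1 and 3, and yet above every other library. The adaptor tank, which binds TRAF proteins in NF-kB signalling, had 3.58 to 5.11 CPM in LWS2 and at most 1.26 CPM elsewhere. For birc2, an inhibitor of apoptosis and ubiquitin ligase, the member feature had 57.2 to 86.9 CPM in LWS2 and at most 36.9 CPM elsewhere, and a second feature named BIRC2 had means of 169.7 CPM in LWS2 and 124 CPM in LWS1, so its value may be split between copies.

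The stress-induced transcription factor ddit3 (CHOP) had 92.6, 54.0 and 85.5 CPM in LWS2, 19.3, 8.95 and 6.10 in LWS1, 0.939, 33.99 and 35.2 in tdTomato+ and 4.74, 3.38 and 8.05 in tdTomato- libraries. Its levels outside LWS2 were uneven, with tdTomato+ replicates 2 and 3 above all LWS1 and tdTomato- libraries. The ribosomal protein gene rps27l had 89.2, 35.8 and 73.2 CPM in LWS2, 6.14, 1.28 and 0 in LWS1, 3.29, 5.04 and 0.859 in tdTomato+ and 9.48, 10.1 and 13.1 in tdTomato- libraries. For rps27l the LWS1 values were the lowest on average and LWS2 was 26.7-fold above them. Mych, a Myc family transcription factor, had 105, 13.5 and 55.5 CPM in LWS2 and at most 5.03 CPM elsewhere, and hspb9, a small heat shock protein gene, had 68.2, 4.77 and 50.5 CPM in LWS2 and 0 counts in the 9 other libraries. For both genes the LWS2 libraries themselves differed several-fold, with replicate 2 lowest.

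Members of the vesicle and membrane traffic machinery included arf3a, a Golgi ARF GTPase, with 37.5, 29.0 and 55.1 CPM in LWS2, 6.14, 5.11 and 6.10 in LWS1, 0, 0 and 0 in tdTomato+ and 0, 2.03 and 7.04 in tdTomato- libraries. The tdTomato+ libraries held no count of arf3a. The Rab GTPases rab39bb and rab36, which direct vesicles between compartments, were low outside LWS2: rab39bb had 37.7 to 51.2 CPM in LWS2 and at most 10.1 CPM elsewhere, and rab36 had 11.9 to 19.6 CPM in LWS2 and at most 2.01 CPM elsewhere. Chmp5b and stam, which act in sorting of ubiquitin-tagged membrane proteins at endosomes, were of similar level: chmp5b had 98.5 to 107 CPM in LWS2 and at most 50.9 CPM elsewhere, and stam had 106 to 114 CPM in LWS2 and at most 64.2 CPM elsewhere. Their LWS2 libraries were close to each other, as were those of the outer mitochondrial membrane channel vdac2, with 1209.8, 1164 and 1199.5 CPM in LWS2, 550.1, 577 and 540.5 in LWS1, 465, 697 and 465 in tdTomato+ and 266, 687 and 469 in tdTomato- libraries. Mfsd2ab is related to the transporter that carries docosahexaenoic acid in lysolipid form into brain and retina of mammals, and it had 33.8 to 59.6 CPM in LWS2 and at most 10.2 CPM elsewhere. A rarer feature with the reference name MFSD2A had a mean of 0.654 CPM in LWS2 and up to 17.1 CPM elsewhere. GDPD2, of the glycerophosphodiester phosphodiesterase family, had 37.3 to 69.3 CPM in LWS2 and at most 12.2 CPM elsewhere. Stoml3a, a stomatin-like membrane protein gene, had 17.1 to 21.6 CPM in LWS2 and at most 2.56 CPM elsewhere.

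The voltage-gated potassium channel subunit kcnv2b, a modifier subunit that photoreceptors use, was split over features. The member (ENSDARG00000113755) had 84.1, 124 and 116 CPM in LWS2, 49.1, 34.5 and 10.2 in LWS1, 23.5, 33.99 and 8.59 in tdTomato+ and 0, 18.3 and 12.1 in tdTomato- libraries. The other kcnv2b feature (ENSDARG00000110270) went the opposite way, with means of 154 CPM in LWS2 and 288 CPM in LWS1, so the counts give no single direction for this gene. The calcium sensor calmodulin calm1b had 244, 177 and 248 CPM in LWS2, 61.4, 81.8 and 63.0 in LWS1, 96.7, 99.5 and 60.1 in tdTomato+ and 42.7, 89.2 and 95.6 in tdTomato- libraries. The LWS2 values were the highest and the other 3 groups overlapped. The nuclear receptor nr2f2 (COUP-TFII) had 202, 118.8 and 163 CPM in LWS2, 37.7, 28.1 and 32.5 in LWS1, 84.5, 55.4 and 71.3 in tdTomato+ and 61.7, 63.5 and 80.5 in tdTomato- libraries. For nr2f2 the LWS1 values lay below all others, but edgeR called LWS1 different from neither tdTomato+ (FDR = 0.833 by edgeR) nor tdTomato- (FDR = 0.25 by edgeR). By in situ hybridization, the authors saw nr2f2 in both LWS1 and LWS2 cones and in some cells of the inner nuclear layer. They describe its bias toward dorsal retina as very slight.

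The translation genes pabpc1a, eif5b and eif5a2 were among the most abundant members. Pabpc1a, the poly(A)-binding protein gene, had 1541, 1573 and 1293 CPM in LWS2, 726, 602 and 378 in LWS1, 371, 885 and 563 in tdTomato+ and 322, 502 and 414 in tdTomato- libraries. It had the highest level of the 100 and was 2.58-fold above LWS1. Eif5b, which joins ribosomal subunits at the start codon, had 442, 192 and 343 CPM in LWS2, 120.2, 32.0 and 26.4 in LWS1, 19.3, 60.4 and 109.9 in tdTomato+ and 19.0, 51.4 and 56.3 in tdTomato- libraries. LWS2 replicate 2 was well below replicates 1 and 3 for eif5b. Genes better known from other tissues were also members: the muscle M-band gene myom2a had 17.1 to 40.3 CPM in LWS2 and at most 2.56 CPM elsewhere, the calcification inhibitor mgp (matrix Gla protein) had 52.3, 55.6 and 147 CPM in LWS2 and at most 14.6 CPM elsewhere, and the somatostatin gene sst1.1 had 27.8, 7.15 and 28.1 CPM in LWS2 and at most 2.01 CPM elsewhere. A gene with no role given in the files, si:ch1073-340i21.1, had 9.09 to 12.7 CPM in LWS2 and at most 1.26 CPM elsewhere.

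Those of the remaining members that are named next were chosen after their values had been seen. Further traffic genes were RAB6B, a Golgi Rab GTPase, with 32.9 to 40.9 CPM in LWS2 and at most 20.5 CPM elsewhere, VPS35L, a subunit of the endosomal retriever complex, with 34.3 to 39.3 CPM in LWS2 and at most 22.3 CPM elsewhere, and pacsin2, a membrane-bending protein, with 56.8 to 66.3 CPM in LWS2 and at most 36.6 CPM elsewhere. A second, rarer feature named RAB6B had a mean of 3.02 CPM in LWS2 and up to 23.1 CPM elsewhere. RAB7A, the late endosome GTPase, was counted on 3 features. The member (ENSDARG00000021287) had 9.66 to 15.0 CPM in LWS2 and at most 5.26 CPM elsewhere, and the more abundant other features had means of 85.8 and 41.0 CPM in LWS2 against 124 and 67.8 CPM in LWS1, so the counts give no single direction for RAB7A either. OSBPL1A, an oxysterol-binding protein homologue, had 21.6, 19.9 and 23.1 CPM in LWS2, 9.65, 2.56 and 12.2 in LWS1, 0, 0 and 0 in tdTomato+ and 0, 0 and 2.01 in tdTomato- libraries. Every LWS1 library held it, whereas the tdTomato+ libraries held no count.

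Metabolic and signalling enzymes among the remaining members included the CTP synthase ctps1a with 32.2 to 36.2 CPM in LWS2 and at most 19.6 CPM elsewhere, the inositol monophosphatase IMPA1 with 59.6 to 74.0 CPM in LWS2 and at most 40.3 CPM elsewhere and sptlc2b, a subunit of the enzyme that starts sphingolipid synthesis, with 35.8 to 38.1 CPM in LWS2 and at most 23.9 CPM elsewhere. A more abundant feature with the reference name CTPS1 had a mean of 64.3 CPM in LWS2 and up to 85.1 CPM elsewhere, so it was not set apart. A rarer feature named SPTLC2 had means of 0.522 CPM in LWS2 and 5.06 CPM in LWS1. The N-myristoyltransferase NMT1, which attaches myristate to proteins, had 90.5 to 125.1 CPM in LWS2 and at most 61.5 CPM elsewhere. The phosphoinositide 3-kinase subunit pik3cb had 40.3, 32.2 and 36.6 CPM in LWS2, 1.75, 0 and 0 in LWS1, 0, 2.52 and 0 in tdTomato+ and 0, 14.9 and 9.05 in tdTomato- libraries. LWS1 and tdTomato+ were near 0 for pik3cb, and tdTomato- replicates 2 and 3 were the highest outside LWS2. The carbonyl reductase gene cbr1l had 7.38 to 22.6 CPM in LWS2 and at most 4.06 CPM elsewhere, the aminoacylase gene acy3.1 had 35.0 to 51.7 CPM in LWS2 and at most 23.7 CPM elsewhere, and the sulfotransferase gene sult1st5 had 3.41 to 5.16 CPM in LWS2 and at most 1.01 CPM elsewhere. FKBP3, a prolyl isomerase, had 101.1 to 122.8 CPM in LWS2 and at most 53.3 CPM elsewhere, and nudc, a dynein-associated protein gene, had 91.0 to 117 CPM in LWS2 and at most 48.3 CPM elsewhere. These 2 genes were above 90 CPM in every LWS2 library. The 3 members without a name had means of 69.5, 13.8 and 10.3 CPM in LWS2.

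**Figure D3:**
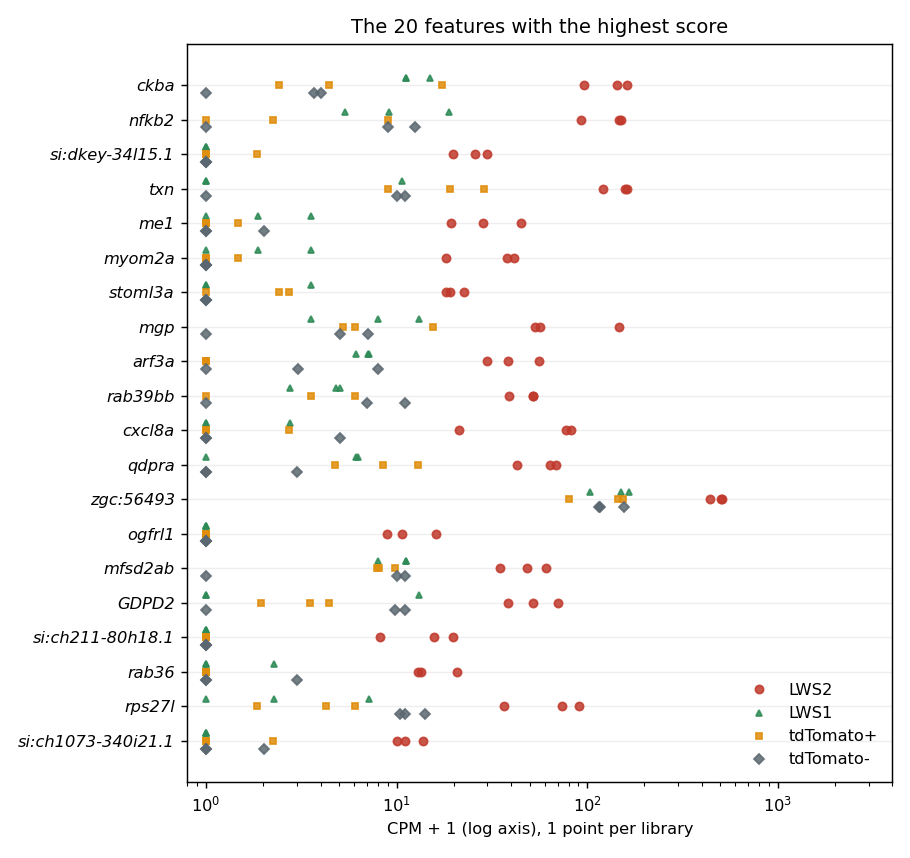
CPM + 1 on a log axis for the 20 members with the highest score, 1 point per library. All LWS2 points lie right of the other libraries, as the rule requires, and many other libraries stand at 0 counts (CPM + 1 of 1); zgc:56493 is the most abundant of the 20 in every group.

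For 5 members, all 9 other libraries had 0 counts. These were hspb9, HECTD2, ogfrl1 with 9.66, 7.95 and 15.0 CPM in LWS2, si:ch211-80h18.1 with 18.7, 7.15 and 14.6 CPM and si:dkeyp-13d11.1 with 5.68, 1.99 and 1.93 CPM. No other ranked feature had this pattern, which follows from the rule, since 0 counts elsewhere put any ranked feature above the limit. Against the pooled floor of 3 counts, ogfrl1 was at least 8.75-fold higher than in LWS1, at least 14.8-fold higher than in tdTomato+ and at least 9.73-fold higher than in tdTomato-. For hspb9, LWS2 was at least 33.1-fold higher than LWS1, with means that rest mostly on LWS2 replicates 1 and 3. Such counts cover counting error only, and 1 count was worth 0.385 CPM in the deepest library and 4.74 CPM in tdTomato- replicate 1.

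The LWS2 libraries differed among themselves. The coefficient of variation of a member over the 3 libraries had a median of 18.5% (22.5% over the ranked features) and ran from 1.99% for vdac2 to 79.5% for hspb9. LWS2 replicate 2 was the lowest of the 3 for 61 members, against 35.0% of the ranked features, and replicate 1 was the highest for 41 members. Summed over the 100 members, the CPM were 10798, 9518 and 10649 in LWS2 replicates 1 to 3 and 1807 to 3651 in the other 9 libraries. The highest value outside LWS2 lay in LWS1 for 28 members, in tdTomato+ for 38 and in tdTomato- for 34, near the 31.6%, 35.8% and 32.6% of the ranked features. Of 91 members placed on the gene order of the GRCz12tu assembly, which is not the build of the files, no more than 7 fell on 1 of 25 chromosomes, and only calm1b and nfkbiaa lay within 5 protein-coding genes of each other.

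To read the choice in a library that had not taken part, the rule was applied with each library left out in turn. Without LWS2 replicate 1, 92 of the 100 chosen features lay above the highest of the other 9 libraries in that replicate, against 10.5% of the ranked features. The number was 89 for LWS2 replicate 2, against 8.82%, and 95 for LWS2 replicate 3, against 11%. For left-out libraries of the other groups, 93 to 97 of the chosen features lay below the lowest LWS2 library, against 40.2% to 65.5% of the ranked features. The libraries on the other side of each comparison had taken part in the choice. A share above that of the ranked features therefore follows in part from the rule, and these numbers are a description. The lists chosen without a library shared 69 (LWS2 replicate 2) to 94 members with the full list. When every library was thinned to the 210866 counts of tdTomato- replicate 1, only 60 members kept 5 counts in each LWS2 library and 48 remained among the first 100.

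**Figure D4:**
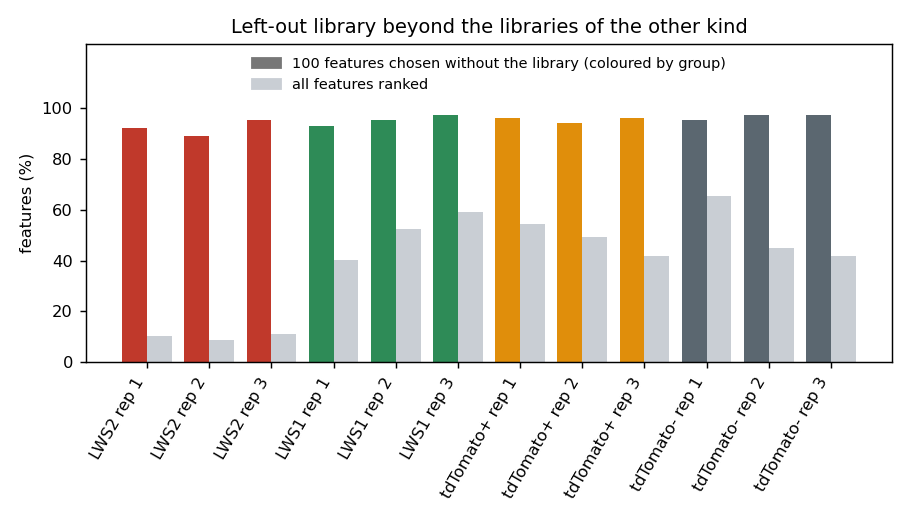
Percent of features for which a left-out library lies beyond the libraries of the other kind (a left-out LWS2 library above the other 9; any other left-out library below the lowest LWS2 library), for 100 features chosen without it (coloured) and for all ranked features (grey). The coloured bars stand at 89% to 97%, and the grey bars at 8.82% to 11% for LWS2 libraries and 40.2% to 65.5% for the others. The libraries compared against took part in the choice, so the gap between the bars follows in part from the rule.

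Each pair of groups was also fitted across all features with edgeR (quasi-likelihood, Benjamini-Hochberg adjusted), and a call required an adjusted p, or FDR, under 0.05 together with more than a 2-fold change. For the pairs with LWS2, which the rule used, the counts are given as a description. Against LWS1, 37 of 92 members that passed the filter on low counts were called higher in LWS2, where 1.2% of all 8432 features tested were. Against tdTomato+ it was 26 of 96 members and 0.708% of all features, and against tdTomato- 67 of 95 members and 4.51% of all features. The calls depended on single libraries, for the members and for all features. Against LWS1 the members called fell to 1, 13 and 0 without LWS2 replicate 1, 2 and 3, and to 23 without LWS1 replicate 1. The calls higher in LWS2 over all features also fell in each of these fits. Against tdTomato+ the members called fell to 0, 8 and 0 without LWS2 replicate 1, 2 and 3. They were 60, 5 and 3 without tdTomato+ replicate 1, 2 and 3. Over all features, the 68 calls became 1, 18 and 0, and 242, 8 and 14. Against tdTomato- the members called fell to 40 and 21 without LWS2 replicate 1 and 3, and to 31 and 35 without tdTomato- replicate 2 and 3. Over all features, the 433 calls higher in LWS2 became 181 and 85, and 173 and 183.

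The pairs without LWS2 compare the members among the other groups, which the rule used only through the highest of their values. A high value in any of these groups lowers the score. Few calls among the members may therefore follow in part from the rule, and these counts are a description. Between LWS1 and tdTomato+, edgeR called 0 of the 51 members that passed the filter, 1 had an unadjusted p under 0.05 (5.38% of all features), and DESeq2 called 0 of 94. Of all features, edgeR called 0.0139% higher in LWS1 and 0% higher in tdTomato+, and DESeq2 called 27 and 20 of 20062. The members' log2 fold changes had a median of -0.14, beside -0.04 over all 7214 features tested, with 15 above 0 and 36 below, where 47.2% of all features were above 0. Between LWS1 and tdTomato-, edgeR called 0 of 41 members, 2 had an unadjusted p under 0.05 (20.7% of all features), and DESeq2 called 1 of 94, chst2a. Of all features, edgeR called 2.39% higher in LWS1 and 4.7% higher in tdTomato-, and DESeq2 called 304 and 523 of 20551. The edgeR median was 0.08 for the members and 0.05 for all, with 23 members above 0 and 18 below, where 51.8% of all features were above 0. Between tdTomato+ and tdTomato-, edgeR called 0 of 54 members, 3 had an unadjusted p under 0.05 (13.4% of all features), and DESeq2 called 0 of 95. Of all features, edgeR called 0.146% higher in tdTomato+ and 1.99% higher in tdTomato-, and DESeq2 called 74 and 428 of 20968. The edgeR median was 0.14 for the members and 0.11 for all, with 37 members above 0 and 17 below, where 55.2% of all features were above 0. All DESeq2 totals count features with a p-value, and any of them without an adjusted p counted as not called. A member outside these calls is not shown to be equal between the groups.

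**Figure D5:**
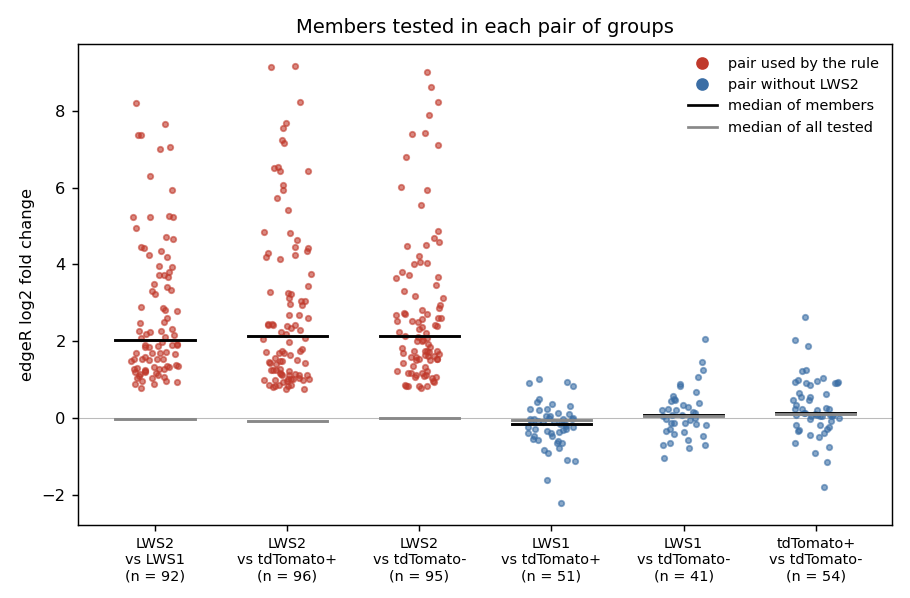
edgeR log2 fold change of each member that passed the filter, in 6 pairs of groups, with the number of members tested under each pair; black lines are the members' medians and grey lines the medians of all features tested. Members lie above 0 in the pairs with LWS2 because the rule chose them so. In the pairs without LWS2 the members' medians were -0.14, 0.08 and 0.14, beside -0.04, 0.05 and 0.11 over all features.

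The members with the smallest p in those pairs were chosen after their values had been seen. The sulfotransferase chst2a, which modifies carbohydrate chains, had 325, 280.5 and 379 CPM in LWS2, 186, 99.7 and 89.4 in LWS1, 113, 83.1 and 124 in tdTomato+ and 0, 35.2 and 50.3 in tdTomato- libraries. All LWS1 and tdTomato+ libraries lay above all tdTomato- libraries, with a log2 difference of 2.06 (SE 0.67, FDR = 0.0925 by edgeR) for LWS1 over tdTomato- and a log2 difference of 1.87 (SE 0.70, FDR = 0.248 by edgeR) for tdTomato+ over tdTomato-. Without tdTomato- replicate 1, which had the fewest counts, edgeR called chst2a higher in LWS1 than in tdTomato-. A second, rarer feature with the reference name CHST2 was not highest in LWS2. It had means of 2.34 CPM in LWS2 and 6.79 CPM in LWS1, and at most 42.7 CPM outside LWS2. THOP1 had a log2 difference of 1.25 (SE 0.49, FDR = 0.167 by edgeR) for LWS1 over tdTomato-. For nr2f2, LWS1 lay below tdTomato+ with no overlap, with a log2 difference of -1.10 (SE 0.48, FDR = 0.833 by edgeR). Si:ch211-217a12.1, named GPT (alanine aminotransferase) in the reference list, had 54.0, 59.6 and 62.0 CPM in LWS2, 29.8, 7.67 and 22.4 in LWS1, 32.9, 15.1 and 25.8 in tdTomato+ and 0, 0.676 and 10.1 in tdTomato- libraries. Its tdTomato+ libraries lay above the tdTomato- libraries, with a log2 difference of 2.63 (SE 0.97, FDR = 0.234 by edgeR). The gene zgc:56628 had a log2 difference of 2.03 (SE 0.83, FDR = 0.295 by edgeR) in the same pair. A second feature with the reference name GPT had means of 12.5 CPM in LWS2 and 15.8 CPM in LWS1, and at most 75.4 CPM outside LWS2.

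Whole gene lists were set beside their members in LWS2 against LWS1, where 1.2% of all features were called higher in LWS2 and 0.605% higher in LWS1. The calls of members in these counts follow from the rule and are no result about the lists. Of the ubiquitin and p97 list, 45 features were tested, 2 rose in LWS2 (nsfl1c and ufd1l), 0 fell and 38 had a log2 fold change above 0, as did 48.7% of all features, with a median of 0.44 beside -0.02 over all features. Without the 6 members the median of the remaining 39 was 0.41. Of these 39, edgeR and DESeq2 each called 0, and 9 higher and 0 lower had an unadjusted p under 0.05, beside 7.19% higher and 7.38% lower of all features. Without the members, the list had a median of 0.29 against tdTomato+ and 0.52 against tdTomato-, beside -0.06 and -0.005 over all features. These comparisons share the LWS2 libraries. Of the features that were not members, edgeR called 0 and 2 higher, beside 0.708% and 4.51% of all features. DESeq2 called 1 and 3 of them higher, beside 136 of 21450 and 543 of 21827 features. Neither called any of them lower. Of the chaperone and heat shock list, which held no member, 40 were tested, with a median of 0.33. The member hspb9, a small heat shock protein gene, was not on this list. On this list edgeR and DESeq2 each called 0, and 8 higher and 0 lower had an unadjusted p under 0.05, to be read against the same shares of all features. Against tdTomato+ its median was 0.19, with 2 higher and 2 lower at that p by edgeR. Against tdTomato- it was 0.31, with 7 higher and 2 lower.

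Of the antioxidant list, 25 were tested, and 3 rose (txn, txnrd3 and prdx1), with a median of 0.03. The 21 that were not members had a median of -0.03, beside -0.02 over all features. Of the integrated stress response list, 36 were tested and 2 rose (ddit3 and atf5a, the latter removed by the rule), with a median of 0.31. Of the apoptosis list, 27 were tested and 3 rose (birc2, and phlda3 and aifm4, which the rule removed), with a median of 0.25. Of the immediate early and NF-kB list, 22 were tested and 2 rose (nfkb2 and nfkbiaa), with a median of 0.04. Against tdTomato+, the stress response, apoptosis and immediate early lists had medians of 0.39, 0.005 and -0.27, beside -0.06 over all features. There edgeR called 2 of each list higher in LWS2 and 0 lower (68 and 13 of all 9598). Against tdTomato- the medians were 0.02, 0.15 and -0.99, beside -0.005. There edgeR called 2, 4 and 3 higher and 8, 2 and 9 lower, of 42, 26 and 26 tested (433 and 768 of all 9604).

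The phototransduction list, with calm1b as its only member, had 62 features tested, of which 3 rose and 5 fell, with a median of -0.32. The mitochondrial and energy list had 53 tested, 1 up (ckba) and 1 down, with a median of 0.06, and the synapse and vesicle list had 33 tested, 2 up and 1 down, with a median of -0.22. In the nuclear receptor and dorsoventral list, 23 were tested, nr2f2 rose and 1 feature fell, with a median of -0.14. The autophagy and lysosome, cytoskeleton and cilium, and ribosome and translation lists held no member. The rule had removed 1 feature from each before the ranking (sqstm1, tuba8l2 and gnl3l). The members rps27l, pabpc1a, eif5b and eif5a2 have ribosomal or translation roles but were not on these lists. The autophagy list had a median of -0.03 over 34 features with 1 up (sqstm1, removed by the rule), and the ribosome list 0.24 over 61 with 2 up and 1 down. Of these 61 ribosome and translation features, 50 had a log2 fold change above 0. By edgeR, 11 higher and 1 lower had an unadjusted p under 0.05. The cytoskeleton list had a median of -0.23 over 49 features, of which edgeR called 0 and DESeq2 called 1, and 6 higher and 7 lower had an unadjusted p under 0.05, beside 7.19% and 7.38% of all features.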

How the data were processed

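Reads were trimmed by the authors (Trimmomatic 0.36), mapped by STAR and by Salmon to the GRCz11 build, and read into R by tximport. They deposited whole-number counts for 30258 Ensembl features in 12 libraries, without normalization; which aligner's output these counts hold is not given in the sources used here. Libraries had been made with poly-A selection (TruSeq). Deposited tables of the authors' own comparisons hold fold changes, p-values and 12 columns of per-sample values, which were not used. Groups came from the sample labels.

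Symbols came from those deposited tables (1010 features) and otherwise from a reference gene name list (23598 IDs matched), so 73 members carry a deposited symbol, 24 a reference name, often in capitals, and 3 none. The deposited symbols exist only for features in the authors' comparison tables. CPM were computed after the rule's removals. Pairs of groups were filtered with filterByExpr, normalized with TMM and tested with edgeR 4.0.16 (R 4.3.3), with DESeq2 1.42.0 as an alternative, and the other steps used Python 3.11.15, numpy 2.4.6, pandas 2.3.3 and matplotlib 3.10.9. The tests were tested on simulated data.

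The members and gene lists were chosen with earlier results of these data known. Genes were named by a rule: the 20 highest scores, the 5 highest mean LWS2 levels, up to 3 members per list, members called in pairs without LWS2, ranks 99 to 102, and members with 0 counts elsewhere. Other genes in the text, the rest of the list members included, were chosen after their values had been seen. Alternatives were other added CPM, minimum counts, scalings, filters, names and sums by name, thinning, DESeq2, a replicate block and leaving out each library. The values of 1 member are not reported here.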

Additional observations from a re-analysis of the deposited data

How the results depend on the processing

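Of the 100 members, 92 were shared with the lists made with 1 or 10 CPM added in the score, 96 with a minimum of 10 counts, 90 with TMM, 89 with DESeq2 size factors, 75 with the mitochondrial genes kept, 99 with reference names used in the removals, 90 with features summed by name and 48 after thinning to the smallest library. Leaving out each library gave 69 to 94. Leaving out LWS1 replicate 3 and tdTomato- replicate 1 together, an alternative added after seeing the data, gave 81. Members called higher in LWS2 than in LWS1 numbered 37, and 62 with DESeq2, 75 without the filter and 0 to 32 with each library left out. Over all features, the number of such calls also rose with DESeq2 and without the filter, where more features were tested. It fell with each library left out. Against tdTomato+ 26 of 96 members were called (68 of 9598 features). With DESeq2 it was 48 of 100 (136 of 21450), and without the filter 61 of 100 (198 of 21455). With each library left out, 0 to 60 members and 0 to 242 of all features were called. Against tdTomato- the 67 of 95 members (433 of 9604 features) became 21 to 75 (85 to 774 of all features) with each library left out. In LWS1 against tdTomato- the count of 0 became 1 with DESeq2, 1 without the filter and 0 to 1 with each library left out, and it stayed at 0 in the other pairs without LWS2. For chst2a in LWS1 against tdTomato-, the log2 fold change of 2.06 was called at 2.14 with DESeq2, 2.09 without the filter and 1.69 without tdTomato- replicate 1.

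Replicate numbers are shared between groups in the labels, but deviations from the group means did not correlate above 0.1 for every number in any pair (0.17, 0.15 and 0.00008 between LWS2 and LWS1), so the numbers were not taken to pair the libraries, although 2 of the 3 numbers did in LWS2 against LWS1 and in LWS2 against tdTomato+ (0.22 and 0.13), and shared fish or sorts are not shown to be absent. With the replicate number as a block, members called higher in LWS2 numbered 42 against LWS1, 48 against tdTomato+ and 58 against tdTomato-, and 0 in the pairs without LWS2. Over all features, the calls higher in LWS2 moved the same way as the members. They rose against LWS1 and tdTomato+ and fell against tdTomato-, so these shifts were not particular to the members. The cause of these differences was not tested. Depth limits the low members: a floor of 3 counts was 14.2 CPM in tdTomato- replicate 1. Counts of reads without molecular identifiers cover counting error only. The planned search for promoter motifs was not run, since no promoter sequence was used here.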
